A study of Mus musculus with 16 samples.

Results

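The insulin-like growth factor axis was followed in bone marrow stromal cells through 9 genes, taken by symbol from a count table of 52459 genes: the ligand gene Igf1, the receptor genes Igf1r and Insr, and the binding protein genes Igfbp2, Igfbp3, Igfbp4, Igfbp5, Igfbp6 and Igfbp7. All 9 were present and all 9 passed the low-count filter. The cells came from Townes sickle mice, in which human globin genes stand in place of the mouse ones, and were sorted as live single cells without CD45, Ter119 or CD31 and with CD51 and CD140a. SS mice were homozygous, hα/hα::βS/βS, with a knock-in that joins the human Aγ-globin gene to sickle beta globin. SA mice, used as controls, were hα/hα::βA/βS, with 1 sickle and 1 wild-type human beta globin copy. The human alpha globin was thus shared by both genotypes, and the controls were sickle trait carriers rather than wild-type mice. The labels used here give no age, sex or pooling of animals. Each genotype had 4 libraries, 1 per mouse as numbered in the titles, each sequenced on 2 lanes. No label says beyond that number that the 4 were separate animals. The p-values therefore set the difference between genotypes against the spread of these libraries within a genotype.

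IGF1 is a small secreted hormone made by many tissues, with growth hormone as its main driver in liver and local cues elsewhere. It acts through the receptor tyrosine kinase IGF1R, a close relative of the insulin receptor, and signals through receptor substrates to the PI3K, AKT and ERK cascades. Most IGF outside cells is held by the binding proteins, which carry it, store it in matrix or keep it from the receptor, and which proteases such as PAPP-A cut to free it. In bone the axis is known for promoting osteoblast growth and matrix formation, and IGFBP5 is an abundant binding protein of bone matrix.

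Total counts per library ran from 24797857 to 31117007. The sort's own markers were present, with Pdgfra (CD140a) at 168.6 to 481 CPM, Itgav (CD51) at 252 to 821 CPM and the marrow stromal genes Lepr at 1099 to 2783 CPM and Cxcl12 at 10500 to 23450 CPM. Here CPM is a count scaled to library size, with library sizes adjusted by the trimmed mean of M-values (TMM) method. Leukocyte RNA was present despite the gate. The summed level of 15 pan-leukocyte genes ran from 901 to 4971 CPM in SA and from 416 to 2938 CPM in SS, and was highest in SA replicate 2, SA replicate 1 and SS replicate 1. These 3 libraries are called leukocyte-rich below. SS replicate 2 carried 57347 Xist counts, against at most 420 elsewhere, and 12 counts of the Y-linked Ddx3y, against at least 2282 elsewhere. By these genes it alone read as female, and its title alone holds the date-like numbers 10-28. All SA titles hold 10-19 and the remaining SS titles 10-22, so whatever these numbers stand for cannot be told apart from genotype.

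None of the 9 members passed the edgeR quasi-likelihood test between SS and SA at a Benjamini-Hochberg adjusted p of 0.05 over the 17316 genes tested, and neither did any other gene (0 genes, 0%). In the same fit 1209 genes, or 6.98%, had an unadjusted p under 0.05 (4.03% higher in SS and 2.96% lower), and 1 of the 9 members, Igf1, was among them. DESeq2 called 319 genes (1.65% of those it gave an adjusted p, 0.926% higher in SS and 0.725% lower) and none of the members, and limma-voom called 0. Of the members 6 had a positive log2 fold change of SS over SA, with a median of 0.24, where 8481 of all 17316 genes were positive and the median was -0.01. With the 3 leukocyte-rich libraries left out 7 were positive, and 5 with leukocyte transcripts as a covariate. All 15 pan-leukocyte genes of this covariate were themselves lower in SS (median log2 fold change -1.22, with 0 called by edgeR or DESeq2). Covariate and genotype thus overlap in part, and the fit cannot fully separate them.

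Igf1, the ligand, was the member that separated the genotypes. It lies on chromosome 10 of GRCm38 (87858265 to 87937042). SA mice 1 to 4 had 387, 350.1, 478 and 438 CPM, and SS mice 1 to 4 had 494, 819, 690.3 and 692 CPM. Every SS library was above every SA library, by a narrow margin between SS replicate 1 and SA replicate 3. Such separation was seen for 3.91% of all genes tested, 2.36% with SS higher and 1.55% with SS lower, and Igf1 was the only one of the 9 members to show separation in either direction. The means were 413 ± 56.3 CPM (SD, n = 4) in SA and 674 ± 134 CPM (SD, n = 4) in SS. The log2 fold change by edgeR was 0.70 (SE 0.20, edgeR adjusted p = 0.628), a 1.63-fold difference. DESeq2 gave 0.69 with an adjusted p of 0.0863. The highest value was from SS replicate 2, the library that alone read as female. Without it the log2 fold change by edgeR was 0.60, the lowest with any single mouse left out. The lowest SA values, in replicates 2 and 1, and the lowest SS value, in replicate 1, were those of the leukocyte-rich libraries. Without these 3 the log2 fold change was 0.68, and with the leukocyte covariate it was 0.44 (edgeR adjusted p = 0.709 and 0.991, n = 2 SA and 3 SS in the first). With every library scaled to 14 stromal genes it was 0.27, on a scale where the median of all genes moved to -0.46. In the main fit 13 of these 14 genes themselves had a positive log2 fold change (median 0.38), with 0 called by edgeR or DESeq2. Igf1 is also made by macrophages. The 12 macrophage genes summed to 221 to 1193 CPM in SA and 222 to 1082 CPM in SS, with SA replicate 2 and SS replicate 3 the highest. Of these genes 7 had a positive and 5 a negative log2 fold change (median 0.22). The macrophage antigen gene Adgre1 (F4/80) was at 16.3, 31.6, 9.27 and 1.88 CPM in SA mice 1 to 4, while SS mice 1 to 4 had 49.95, 22.7, 63.5 and 17.1 CPM. Its 2 highest values were from SS replicates 3 and 1, and the genotypes overlapped. None of the 12 was near 0 (under 0.5 CPM on average), and their part in the Igf1 difference was not tested. In bulk RNA from a sorted population, a change in the share of cells that make a transcript and a change in RNA per cell cannot be told apart.

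**Figure D1:**
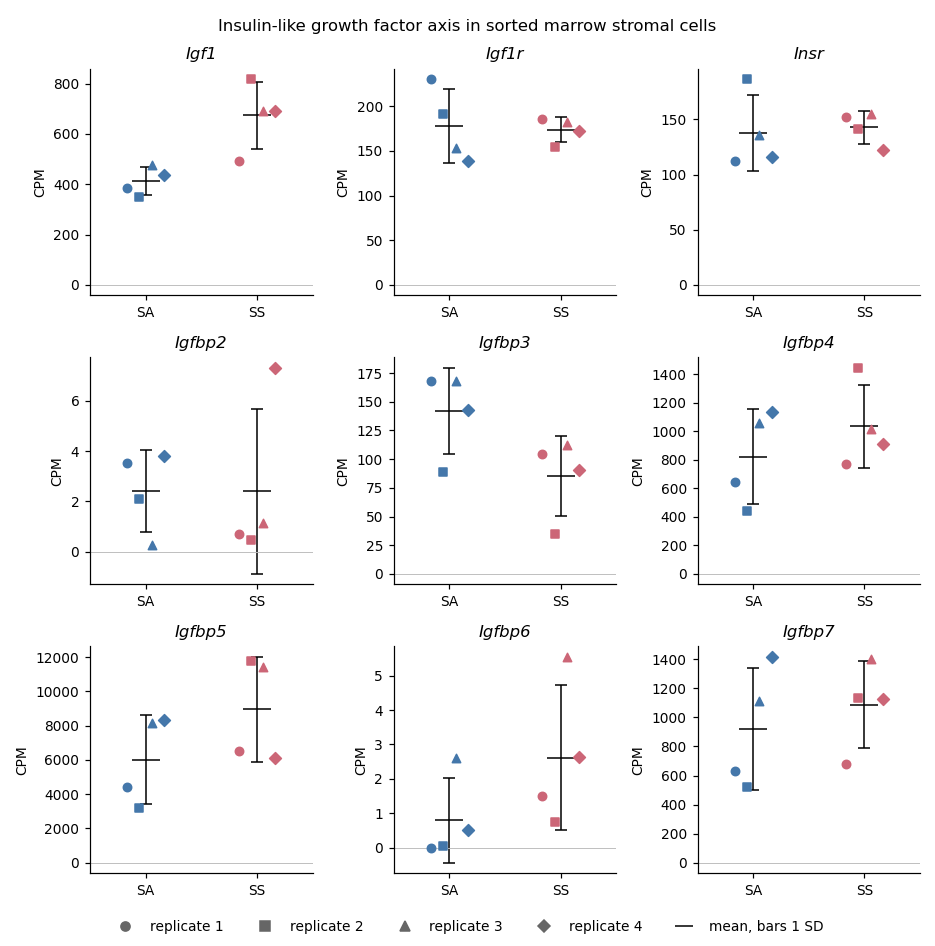
CPM of the 9 members in each mouse, SA in blue and SS in red, with marker shapes for replicates 1 to 4 and black bars for the mean ± 1 SD. Igf1 is the only panel without overlap, from 494 CPM upward in SS and up to 478 CPM in SA.

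The receptors showed little difference between genotypes. Igf1r, the receptor for IGF1, lies on chromosome 7 (67952827 to 68233668), and its level was 231, 192, 153 and 138 CPM in SA mice 1 to 4, while SS mice 1 to 4 had 186, 154, 182 and 172 CPM. The SS values lay wholly inside the SA range, and the highest value in each genotype was from a leukocyte-rich library. Its log2 fold change was -0.04 (SE 0.20, edgeR adjusted p = 0.986). The sign turned positive without the leukocyte-rich libraries (0.22) and with the covariate (0.19), and with upper quartile factors (0.02). Insr, the insulin receptor, lies on chromosome 8 (3122061 to 3279617), and its level was 112, 187, 135 and 116 CPM in SA and 152, 142, 155 and 122 CPM in SS. SA replicate 2 held the highest value of all 8 and SA replicate 1 the lowest. Its log2 fold change was 0.05 (SE 0.21, edgeR adjusted p = 0.977), with the sign turned by library totals alone (-0.00136). Per kilobase of exon, Igf1r over Insr was 1.69 in SA replicate 1 and between 0.840 and 1.16 in the other 7 libraries. Relative to the stromal genes both receptors were lower in SS, at -0.54 for Igf1r and -0.47 for Insr (edgeR adjusted p = 0.563 and 0.617), close to the median of all genes on that scale.

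Igfbp5 was the most abundant member. It lies on chromosome 1 (72857932 to 72874884), with the 3′ ends of Igfbp5 and Igfbp2 facing each other. Its level was 4430, 3176, 8153 and 8315 CPM in SA mice 1 to 4, while SS mice 1 to 4 had 6491, 11776, 11432 and 6091 CPM. It took 0.329% to 1.07% of all counts, and it ranked between the fourth and the fifteenth gene of its library. SS replicates 2 and 3 were above every SA library, while SS replicates 1 and 4 lay inside the SA range. The means were 6019 ± 2610 CPM in SA and 8948 ± 3075 CPM in SS (SD, n = 4 each), with a log2 fold change of 0.57 (SE 0.36, edgeR adjusted p = 0.766). Both leukocyte-rich SA libraries were the lowest of the 8. Without the 3 leukocyte-rich libraries the log2 fold change was 0.24, with the covariate 0.23 and relative to the stromal genes 0.24.

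Igfbp4, a binding protein that PAPP-A cleaves to release IGF, lies on chromosome 11 (99041244 to 99054392). Its level was 647, 442, 1058 and 1138 CPM in SA and 774, 1446, 1016 and 909 CPM in SS. The highest value was from SS replicate 2, and the other 3 SS values fell between SA replicates 1 and 3. Its log2 fold change was 0.33 (SE 0.32, edgeR adjusted p = 0.844), 0.13 without SA replicate 2 or without SS replicate 2, and 0.54 without SA replicate 4. It was 0.03 without the leukocyte-rich libraries, -0.07 with the covariate and 0.00835 relative to the stromal genes.

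Igfbp7, which binds IGF weakly and also binds insulin, lies on chromosome 5 (77349240 to 77408041). An exon of Polr2b on the opposite strand overlaps it, and strand-specific counting is not stated, so reads of the overlap cannot be assigned. Its level was 630.1, 521, 1114 and 1417 CPM in SA and 680, 1136, 1404 and 1129 CPM in SS. The 3 leukocyte-rich libraries held the 3 lowest values, and the genotypes overlapped over most of their range. Its log2 fold change was 0.24 (SE 0.34, edgeR adjusted p = 0.913). It was -0.05 without the leukocyte-rich libraries, -0.20 with the covariate and -0.09 relative to the stromal genes.

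Igfbp3, the main carrier of IGF in blood, was the member above 10 CPM with the most negative log2 fold change. It lies on chromosome 11 (7206086 to 7213923). Its level was 169, 89.0, 168 and 143 CPM in SA mice 1 to 4, while SS mice 1 to 4 had 104, 34.8, 112 and 90.4 CPM. Of the SA libraries 3 were above every SS library, and SA replicate 2 fell between SS replicates 2 and 4. The means were 142 ± 37.4 CPM in SA and 85.5 ± 34.95 CPM in SS (SD, n = 4 each), with a log2 fold change of -0.73 (SE 0.35, edgeR adjusted p = 0.730). By DESeq2 the adjusted p was 0.474. The value ran from -0.90 without SA replicate 2 to -0.47 without SS replicate 2, the female library with the lowest level. It was -0.97 without the leukocyte-rich libraries, -0.62 with the covariate and -1.08 relative to the stromal genes, so its sign was negative in each of these fits. Igfbp3 is also expressed by endothelial cells. The 12 endothelial genes summed to 22.1 to 154 CPM in SA and 29.9 to 232 CPM in SS, highest in SS replicate 1, with Pecam1 between 0.833 and 44.9 CPM. Of the list 8 genes had a positive and 4 a negative log2 fold change (median 0.63), and its part in the Igfbp3 difference was not tested.

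Igfbp2 and Igfbp6 were scarce. Igfbp2, on chromosome 1 (72824503 to 72852474), had 94, 60, 8 and 104 counts in SA mice 1 to 4, while SS mice 1 to 4 had 20, 13, 32 and 227. That is 0.268 to 3.83 CPM in SA and 0.471 to 7.32 CPM in SS, and SS replicate 4 stood far above the rest of its genotype. The log2 fold change was -0.01 (SE 1.13, edgeR adjusted p = 0.999) and -1.65 without SS replicate 4. Igfbp6, which prefers IGF2, lies on chromosome 15 (102144362 to 102149511). It had 0, 2, 78 and 14 counts in SA and 43, 21, 157 and 82 counts in SS. The 0 in SA replicate 1 allows a level of up to 0.113 CPM (3 counts, counting error only). The log2 fold change was 1.70 (SE 1.45, edgeR adjusted p = 0.827) and 3.72 without SA replicate 3. Counts of both genes varied widely between libraries of 1 genotype.

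Levels can be compared between genes only per length, and were expressed as CPM per kilobase of annotated exon (GENCODE M21). In SA the order of mean levels was Igfbp5 (1002), Igfbp7 (761), Igfbp4 (186), Igfbp3 (45.5), Igf1 (41.7), Igf1r (10.6), Insr (10.0), Igfbp2 (1.31) and Igfbp6 (0.718 CPM per kb). In SS it was Igfbp5 (1490), Igfbp7 (899), Igfbp4 (235), Igf1 (68.0), Igfbp3 (27.3), Insr (10.4), Igf1r (10.4), Igfbp6 (2.35) and Igfbp2 (1.30 CPM per kb). The ranges of neighbours overlapped between Igfbp5 and Igfbp7, between Igf1r and Insr and between Igfbp2 and Igfbp6 in both genotypes. Within every single library, however, Igfbp5 was above Igfbp7. Igfbp3 and Igf1 overlapped in SA, at 28.4 to 53.9 and 35.3 to 48.3 CPM per kb. In SS they did not, at 11.1 to 35.9 for Igfbp3 and 49.9 to 82.7 for Igf1.

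**Figure D2:**
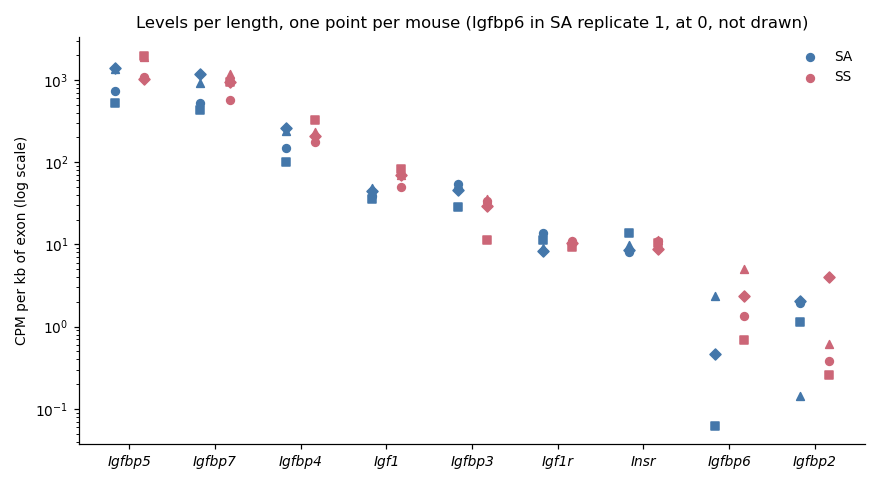
CPM per kilobase of exon on a log scale for the 9 members, 1 point per mouse, SA in blue and SS in red, ordered by the mean over all 8. Igfbp5 and Igfbp7 lie at the top, Igf1r and Insr close together near 10, and Igfbp2 and Igfbp6 at the bottom with the widest spread.

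Per length, Igfbp5 and Igfbp7 together made up most of the binding protein transcripts. Of the summed CPM per kb of Igfbp2 to Igfbp7, Igfbp5 took 50.03 ± 2.04% in SA and 55.6 ± 6.32% in SS, and Igfbp7 took 38.0 ± 2.68% and 34.2 ± 6.17% (SD, n = 4 each). Igfbp4 took 9.38 ± 0.450% and 8.96 ± 1.42%. Igfbp3 took 3.69%, 2.61%, 2.09% and 1.60% in SA mice 1 to 4, while SS mice 1 to 4 had 1.80%, 0.343%, 1.08% and 1.32%. Within the pool its share was lower in 3 SS libraries than in any SA library, while SS replicate 1 was above SA replicate 4. Without division by length Igfbp5 took 75.9% in SA and 79.6% in SS, Igfbp7 took 11.6% and 10.03%, and Igfbp4 took 10.5% and 9.49%. The summed binding protein level exceeded that of Igf1, per kb, 30.8-fold to 64.7-fold in SA and 31.3-fold to 47.9-fold in SS.

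Igfbp4, Igfbp5 and Igfbp7 varied together over the mice. As a measure of likeness, the log2 CPM of each gene was centred on its own mean and the root mean square distance between genes was taken over the 8 libraries. Of the 36 pairs of members the closest was Igfbp4 with Igfbp5, at 0.22 on the log2 scale, then Igfbp4 with Igfbp7 at 0.26, Igf1r with Insr at 0.30 and Igfbp5 with Igfbp7 at 0.31. The distance depends on each gene's own spread over the 8 libraries, an SD of log2 CPM of 0.53 for Igfbp4, 0.65 for Igfbp5 and 0.56 for Igfbp7. For Igf1r and Insr the SDs were 0.23 and 0.25, both below the distance between them, so that this pair cannot be called alike. Igf1 was closest to Igfbp4, at 0.34. Igfbp3 was at 0.67 from Igf1r, its nearest member, and between 0.89 and 1.05 from the trio. With an SD of 0.73 for Igfbp3 and 0.23 for Igf1r, these genes cannot be called alike either. Pairs that include the scarce Igfbp2 or Igfbp6 were at 1.48 or more. All genes of a library share its leukocyte content and scaling, which differ between libraries, so such closeness is a description. Over the 9024 other named genes averaging 10 CPM or more, the nearest to Igf1 were Zfp266, a zinc finger gene, and Calr, an endoplasmic reticulum chaperone (0.09 each). The nearest to Igfbp5 were Abca8a, a membrane transporter, and Ctsl, a lysosomal protease (0.13 and 0.14). Dapk1, a kinase of cell death pathways, and C1ra, a complement protease, lay nearest to Igfbp4 (0.12 each), and Fbxw17 and Cd200, a membrane glycoprotein, nearest to Igfbp7 (0.13 each). Cwc15 and Pum2 were nearest to Igf1r, Dennd1a and Angel2 to Insr, and Snap29 and Pcsk7 to Igfbp3. For the scarce genes the nearest, Stard10 and Pcdh1 for Igfbp2 and Cemip and Pdgfrl for Igfbp6, were 0.71 or more away.

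The promoters of the trio that varied together and of Igf1 are shown to compare their sequence. Each is the 250 bases before the RefSeq start on GRCm38.p6, 5′ to 3′ on the gene's strand. Capitals mark matches on either strand to any of 4 motifs. The TATA box was searched with the letters TATAAA, and the GC box of zinc finger factors with the letters GGGCGG. FOXO factors were represented by the letters GTAAACA and STAT5 by the letters TTCNNNGAA. The stretches are chr10:87860861-87861110 on the plus strand for Igf1, chr11:99040994-99041243 on the plus strand for Igfbp4, chr1:72874866-72875115 on the minus strand for Igfbp5 and chr5:77408046-77408295 on the minus strand for Igfbp7.
Igf1: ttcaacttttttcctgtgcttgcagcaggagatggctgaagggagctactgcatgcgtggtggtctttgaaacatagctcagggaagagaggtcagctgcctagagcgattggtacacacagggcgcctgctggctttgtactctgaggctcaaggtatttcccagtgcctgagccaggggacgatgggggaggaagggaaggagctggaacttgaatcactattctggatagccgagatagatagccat
Igfbp4: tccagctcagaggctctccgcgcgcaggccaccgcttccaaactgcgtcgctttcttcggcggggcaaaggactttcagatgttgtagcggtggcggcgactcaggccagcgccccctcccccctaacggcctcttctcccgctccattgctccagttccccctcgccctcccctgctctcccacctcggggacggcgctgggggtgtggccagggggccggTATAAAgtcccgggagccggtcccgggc
Igfbp5: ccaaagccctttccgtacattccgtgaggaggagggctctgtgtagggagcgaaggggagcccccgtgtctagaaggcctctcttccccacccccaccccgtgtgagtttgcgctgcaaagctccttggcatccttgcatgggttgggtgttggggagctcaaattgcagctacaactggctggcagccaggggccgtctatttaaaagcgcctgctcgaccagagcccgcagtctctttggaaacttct
Igfbp7: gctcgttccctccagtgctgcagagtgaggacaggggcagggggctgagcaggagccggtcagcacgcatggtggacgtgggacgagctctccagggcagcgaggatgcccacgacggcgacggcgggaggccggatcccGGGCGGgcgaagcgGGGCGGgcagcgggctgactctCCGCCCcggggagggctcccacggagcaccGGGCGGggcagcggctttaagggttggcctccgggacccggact
The trio did not share a searched motif. Igfbp4 held a TATA box that begins 28 bases before its start, a match found in 12.4% of 32851 promoter windows of this length. Igfbp7 held 4 GC boxes, where 32.7% of windows hold at least 1. Igf1 and Igfbp5 held none of the 4 motifs as lettered here, and variants of the letters were not searched. None of the promoters searched held the FOXO or the STAT5 letters (3.17% and 7.02% of windows). The share of G and C was 52.8% for Igf1, 58.8% for Igfbp5, 69.2% for Igfbp4 and 74.0% for Igfbp7. Of the 9 members 8 had an entry, and Insr, with none in the table used, was not searched. The Igf1 start used lies inside the annotated gene, which begins at 87858265. For Igf1r, Igfbp6 and 1 of the Igfbp2 starts, the bases just after the start were not found in a GENCODE transcript of the gene.

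Several members differed in level between the 3 leukocyte-rich libraries and the other 5. Of the members, Igf1, Igfbp3, Igfbp5 and Igf1r are plotted against the pan-leukocyte sum. In the 3 leukocyte-rich libraries Igfbp7 was at 521 to 680 CPM, against 1114 to 1417 CPM in the other 5. Igfbp4 was at 442 to 774 CPM there and at 909 to 1446 CPM elsewhere, and Igf1 at 350.1 to 494 CPM there and 438 to 819 CPM elsewhere. Igf1r went the other way, at 186 to 231 CPM there and 138 to 182 CPM elsewhere. Igfbp5 was at 3176 to 6491 CPM there and 6091 to 11776 CPM elsewhere, so that its ranges overlapped, as did those of Igf1. Igfbp3 overlapped over most of its range, at 89.0 to 169 CPM there and 34.8 to 168 CPM elsewhere. The neutrophil list (13 genes) summed to 16581 to 34403 CPM in those libraries and to 1319 to 11005 CPM in the others. None of the 13 neutrophil genes and none of the 15 pan-leukocyte genes was near 0 (under 0.5 CPM on average). The part of these cells in each difference was examined only through the fits with the covariate and without the 3 libraries.

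**Figure D3:**
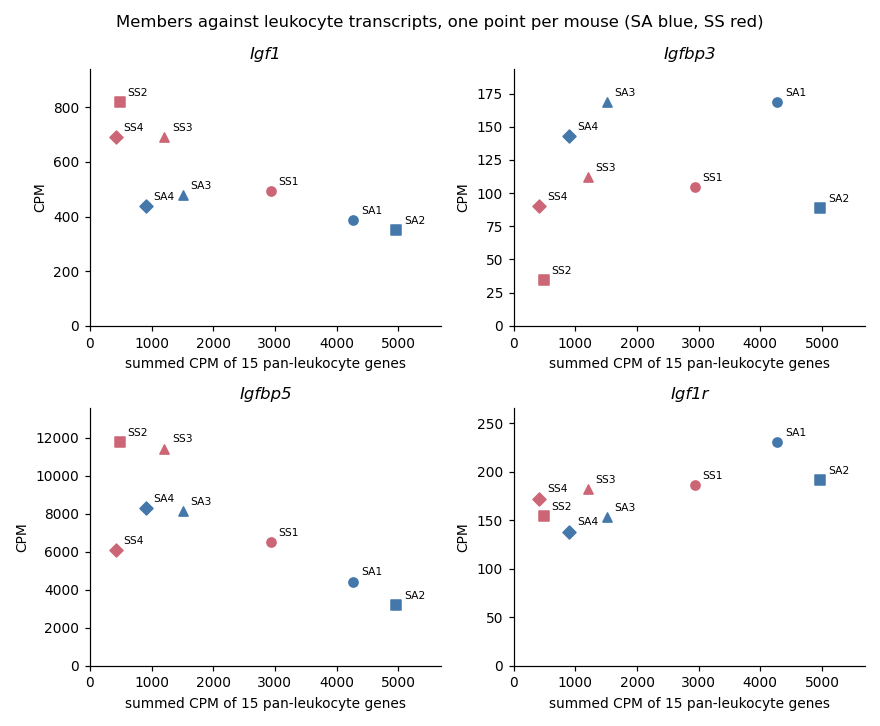
CPM of Igf1, Igfbp3, Igfbp5 and Igf1r (vertical axes) against the summed CPM of 15 pan-leukocyte genes (horizontal axes), 1 labelled point per mouse. SA1, SA2 and SS1 stand at the right, from 2938 to 4971 CPM. There Igf1r lies at 186 to 231 CPM and Igf1 at 350.1 to 494 CPM, while Igfbp5 spans 3176 to 6491 CPM and Igfbp3 89.0 to 169 CPM.

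**Figure D4:**
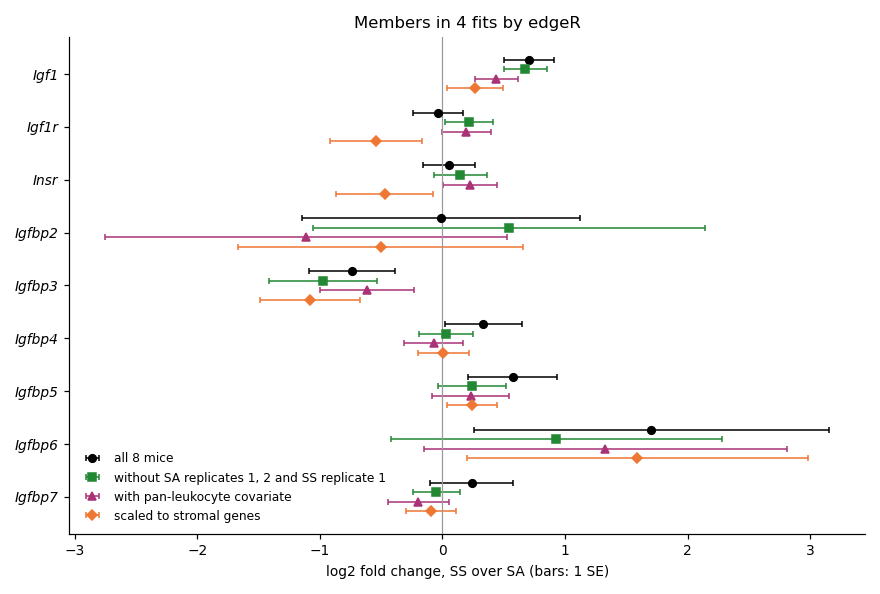
Log2 fold change of SS over SA (bars 1 SE) for the 9 members in 4 edgeR fits: all 8 mice, without the 3 leukocyte-rich libraries, with the pan-leukocyte covariate, and with libraries scaled to 14 stromal genes. Igf1 stays above 0 and Igfbp3 below 0 in all 4 fits shown, while Igfbp4 and Igfbp7 fall to between -0.20 and 0.03 in the 3 fits other than the first.

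Among other ligands, receptors and carriers of the axis, 20 genes were listed and 12 passed the low-count filter. Of these 12, 10 had a positive log2 fold change (median 0.83), with 0 called by edgeR. By edgeR 4 were higher in SS at an unadjusted p under 0.05, as were 4.03% of all genes. DESeq2 called 2 of the 12, Lrp1 and Igf2, where it called 0.926% of all genes higher in SS. The list was written with earlier results of these data known, and the count is a description. With the leukocyte covariate 8 of 12 were positive (median 0.29), and without the leukocyte-rich libraries 9 of 12 (median 0.69). Marker lists of other mesenchymal cells differed in direction. Of the pericyte and smooth muscle list 11 of 12 were positive, with 0 called by edgeR and 4 by DESeq2. Of the fibroblast list 9 of 12 tested were positive, with 0 called by edgeR and 5 by DESeq2. By edgeR 6 pericyte and 5 fibroblast genes were higher at an unadjusted p under 0.05. Over all genes 8481 of 17316 were positive, 4.03% were higher at that p, and DESeq2 called 0.926% higher in SS. Of the osteoblast list 3 of 13 were positive and 10 negative (median -0.88), with 0 called by edgeR or DESeq2. By edgeR 4 of the 13 were lower at an unadjusted p under 0.05, as were 2.96% of all genes. The part of such cells in the axis genes was not tested.

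Igf2, the second IGF ligand and an imprinted fetal growth factor, was at 28.8, 25.9, 48.8 and 76.2 CPM in SA mice 1 to 4, while SS mice 1 to 4 had 81.2, 128, 97.0 and 312 CPM. All SS libraries were above all SA libraries, with SS replicate 4 far above the rest. The log2 fold change was 1.78 (SE 0.48, edgeR adjusted p = 0.595). DESeq2 called it (1.77, adjusted p = 0.0457). Without SS replicate 4 the value was 1.19, and with the leukocyte covariate 0.98. The pericyte and smooth muscle list (12 genes) was likewise highest in SS replicate 4, whose sum of 6691 CPM compared with 1452 to 1935 CPM in SS replicates 1 to 3 and 719 to 923 CPM over SA, and its part was not tested. Igf2r, which takes IGF2 into lysosomes, averaged 107 ± 43.7 CPM in SA and 190 ± 56.8 CPM in SS (SD, n = 4 each; log2 fold change 0.83, SE 0.33, edgeR adjusted p = 0.695), with SA replicate 3 above SS replicate 1. Lrp1, a large endocytic receptor reported to bind IGFBP3, was at 413, 435, 530 and 681 CPM in SA and 747, 1230.4, 1301 and 1381 CPM in SS. It showed no overlap, with a log2 fold change of 1.18 (SE 0.25, edgeR adjusted p = 0.411; DESeq2 adjusted p = 0.00789).

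The regulators of binding protein cleavage were uneven. Pappa, the protease PAPP-A, was abundant in both genotypes, averaging 783 ± 249 CPM in SA and 724 ± 188 CPM in SS (SD, n = 4 each; log2 fold change -0.11, SE 0.28, edgeR adjusted p = 0.960). Stc2, an inhibitor of PAPP-A, was at 1.24 CPM or less in every library. Stc1, of the same family, was at 0 to 1.11 CPM in SA and at 8.31, 1.63, 0.389 and 7.22 CPM in SS replicates 1 to 4 (log2 fold change 3.14, SE 1.40, edgeR adjusted p = 0.704).

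**Figure D5:**
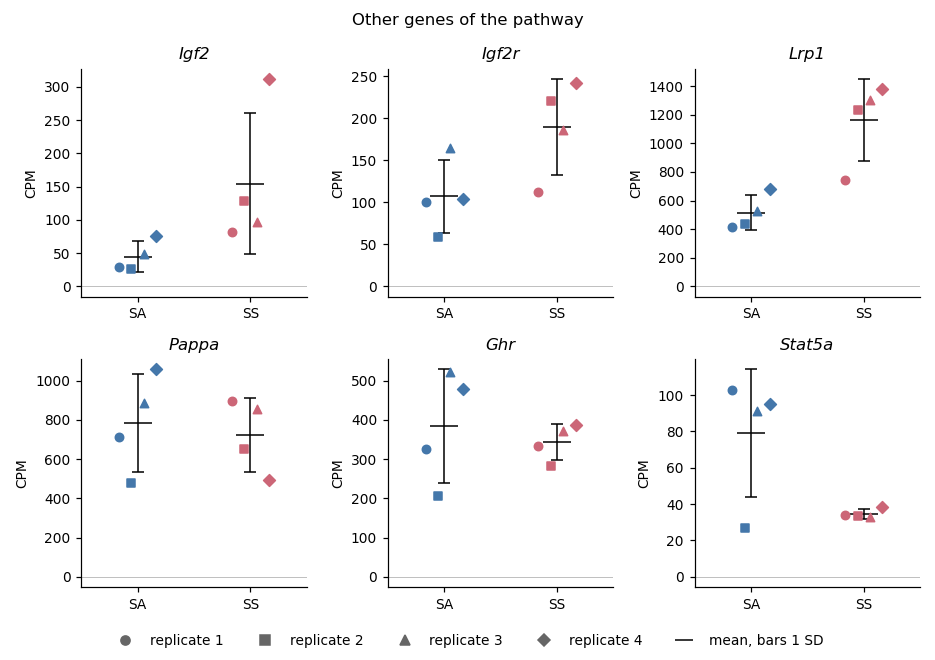
CPM of Igf2, Igf2r, Lrp1, Pappa, Ghr and Stat5a in each mouse, SA in blue and SS in red, marker shapes for replicates 1 to 4 and black bars for the mean ± 1 SD. Igf2 and Lrp1 do not overlap between genotypes, and Stat5a is at 32.7 to 38.5 CPM in SS with 3 of 4 SA values at 91.2 CPM or more.

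Downstream of the receptors the 2 directions were about evenly filled. Of 33 genes of the substrates and of the PI3K, AKT and ERK cascades 16 were positive and 17 negative (median -0.03). None was called by edgeR or DESeq2, and 1 had an unadjusted p under 0.05 by edgeR, against 6.98% of all genes. Grb2, an adaptor that links receptors to the ERK cascade, had a log2 fold change of -0.73 (SE 0.36, edgeR adjusted p = 0.734), and Pik3cb, a catalytic subunit of PI3K, of -1.24 (SE 0.76, edgeR adjusted p = 0.766). For Pik3cb the value was -0.32 without the leukocyte-rich libraries and 0.0669 with the leukocyte covariate. Irs1 and Irs2, the main docking proteins of the receptors, were at 0.53 (SE 0.42) and -0.10 (SE 0.44), and the sign of Irs2 was positive without SS replicate 2 (0.21). With the covariate Irs1 was at 0.0330. Relative to the stromal genes 4 of the 33 were positive (median -0.48, near that of all genes).

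Of 14 negative regulators tested 8 were positive (median 0.06), with 0 called by edgeR or DESeq2. Grb14, an adaptor that inhibits the insulin receptor, was at 23.0 ± 7.79 and 40.1 ± 5.42 CPM (SD, n = 4 each; log2 fold change 0.80, SE 0.31, edgeR adjusted p = 0.695). Grb10, its imprinted relative, was at 0.62 (SE 0.33), Phlpp2, a phosphatase of AKT, at -0.66 (SE 0.36) and Inpp5d, a lipid phosphatase of blood cells, at -1.25 (SE 0.67). With the leukocyte covariate Inpp5d was at -0.44 and Grb10 at 0.18. Socs2, a suppressor of growth hormone signalling, ran from 13.8 to 129 CPM in SA and from 37.9 to 92.2 CPM in SS, with a log2 fold change of 0.20 (SE 0.58) that was -0.50 without the leukocyte-rich libraries. Of 15 FOXO factors and targets tested 9 were positive (median 0.06), with 0 called by edgeR or DESeq2. Bcl6, a transcriptional repressor, was at 99.6 ± 16.1 and 68.1 ± 13.0 CPM (SD, n = 4 each; log2 fold change -0.55, SE 0.22, edgeR adjusted p = 0.695). Gadd45a, Bcl2l11 and Foxo1 itself were at -0.53, -0.63 and -0.43, and Pdk4, a kinase that limits glucose oxidation, at 0.79. Pdk4 was at 0.37 with the leukocyte covariate and at 0.0304 without the leukocyte-rich libraries and SS replicate 2, and Bcl2l11 was at -0.27 with the covariate.

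The growth hormone path is the main driver of Igf1 in liver. Of its 5 genes 4 had a negative log2 fold change (median -0.19), with 0 called by edgeR or DESeq2. Ghr, the growth hormone receptor, was at 326, 207, 522 and 480 CPM in SA mice 1 to 4, while SS mice 1 to 4 had 335, 284, 372 and 386 CPM. All SS values lay inside the SA range (log2 fold change -0.16, SE 0.28, edgeR adjusted p = 0.934), and the sign was positive without SA replicate 3 (0.02). Stat5a, a transcription factor of this path, was at 103, 26.9, 91.2 and 95.2 CPM in SA and at 33.8, 33.3, 32.7 and 38.5 CPM in SS. SA replicate 2 was the lowest of all 8 libraries, and the other 3 SA libraries were above every SS library. Its log2 fold change was -1.19 (SE 0.37, edgeR adjusted p = 0.680; DESeq2 adjusted p = 0.118). Jak2, the kinase bound to the receptor, was at -0.37 (SE 0.20), Stat5b at -0.19 (SE 0.28) and Cish, a STAT5 target, at 0.90 (SE 0.63). Cish was at 0.39 without the leukocyte-rich libraries and at -0.15 with SS replicate 2 left out as well.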

How the data were processed

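RNA was measured by sequencing in 4 SS and 4 SA libraries. Raw counts per gene symbol were deposited, 1 column per mouse, with a second deposited table of signal in which each count is divided by 1 factor per library. Of tools, bcl2fastq, STAR, featureCounts and DESeq2 appear in the submitters' processing notes, beside mm10 and GRCm38, with neither version nor role. Strand setting and annotation: not given in the sources used here. 1 lane of SS replicate 4 is SS by title and SA by its other labels, and was kept in SS. The 52459 symbols matched GENCODE M21 for 91.7%.

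Genes were tested on the deposited counts with edgeR 4.0.16 in R 4.3.3: filterByExpr, TMM, robust quasi-likelihood F test, Benjamini-Hochberg adjustment over 17316 genes. SE is the log2 fold change divided by the root of F. Alternatives were DESeq2 1.42.0, limma-voom 3.58.1, other scaling factors and filters, a replicate block, each mouse left out, a leukocyte covariate (mean log2 CPM of 15 genes), the 3 leukocyte-rich libraries left out and, added after seeing the data, scaling to the geometric mean of 14 stromal genes and leaving out the leukocyte-rich libraries with SS replicate 2. The scripts were tested on simulated counts. All 9 members are named, with up to 4 genes of smallest p per other list, 9 fixed genes and the 2 genes nearest each member. Some genes that this rule names are not reported here. Members and lists were chosen with earlier results of these data known.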

Additional observations from a re-analysis of the deposited data

Results flagged for a closer look

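Igfbp2 was at 7.32 CPM in SS replicate 4, far above the other 3 SS libraries (0.471 to 1.13 CPM). The gap to the next library was 0.904 of the range in SS, above the critical value of Dixon's test for 4 samples. It was 1 flag among 18 gene-by-genotype groups tested, and chance flags about 1 in 20 such groups.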

How the results depend on the processing

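No member passed the threshold in any of the 20 alternatives. Igf1 was higher in SS in all 20, from 0.27 (scaled to stromal genes) to 0.83 (without SS replicate 1), with adjusted p from 0.0863 by DESeq2 to 0.991 with the leukocyte covariate. Over all genes the count of calls was 0 by edgeR, 319 by DESeq2 and 5 without the low-count filter, and 0 to 1 with each mouse left out (1 without SS replicate 1). Members higher in SS numbered 6, from 4 (stromal scaling) to 8 (upper quartile factors, and without SS replicate 2). DESeq2 also called Igf2 (1.77) and Lrp1 (1.17), which edgeR did not.

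Signs that turned follow, and the cause was not tested. Upper quartile factors gave 0.0157 for Igf1r and 0.0509 for Igfbp2, and library totals -0.00136 for Insr. The leukocyte covariate gave 0.19 for Igf1r, -0.0710 for Igfbp4, -0.20 for Igfbp7, -0.0573 for Socs2 and 0.0669 for Pik3cb. Without the 3 leukocyte-rich libraries Igf1r was at 0.22, Igfbp2 at 0.55, Igfbp7 at -0.0515 and Socs2 at -0.50. With SS replicate 2 left out as well, values were 0.29 for Igf1r, 1.06 for Igfbp2, -0.19 for Igfbp4, -0.23 for Irs1, 0.23 for Irs2, -0.64 for Socs2, 0.0591 for Pik3cb and -0.15 for Cish. Stromal scaling gave -0.47 for Insr and -0.0926 for Igfbp7. With each mouse left out the range was -0.14 to 0.10 for Igf1r, -0.0454 to 0.24 for Insr, -1.65 to 0.34 for Igfbp2, -0.29 to 0.0683 for Pappa, -0.50 to 0.21 for Irs2, -0.36 to 0.0237 for Ghr and -0.13 to 0.87 for Socs2.

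The correlation of deviations over genes between same-numbered mice ran from -0.13 to 0.20, and 1 of 4 SA libraries was closest to its own number. Leukocyte content also enters these deviations, so the values cannot decide whether same-numbered mice were paired in some way. With the replicate number as a block edgeR called 0 genes and Igf1 was at 0.69 (adjusted p = 0.614). The SE exceeded 1 for Igfbp2 and Igfbp6, whose counts ran from 8 to 104 and from 0 to 78 within SA.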
